A study of Mus musculus with 6 samples.

Results

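In gonadal white adipose tissue (gWAT) of mice, 197 of 19790 measured genes shared one arrangement of levels over 6 RNA-seq libraries, and the strongest of them encode the secreted proteins of the seminal vesicle. The members were chosen on the measured values. A gene was a member when its counts scaled to a library total of 1000000 (CPM) were at least 5 in normal chow diet (NCD) replicate 1, at least 3 times higher there than in NCD replicate 2, at least 3 times higher in NCD replicate 2 than in NCD replicate 3, and in every high-fat diet (HFD) library no higher than in NCD replicate 3. The levels of the members in the 6 libraries, the ratios between the NCD libraries and the difference between the diets are therefore described here without a test.

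The study fed wild-type C57BL/6 mice NCD or HFD for 8 weeks, from 6 weeks of age by the sample labels, and sequenced the RNA of gWAT from 3 libraries per diet. Per the study's methods the mice were male and started the diets at a different age. Strain, genotype and tissue were the same in both groups, and neither the labels nor the methods used here say whether a library is 1 mouse or a pool. Library totals ranged from 49575113 to 66360046 counts.

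The seminal vesicle is a paired gland of the male reproductive tract that develops from the Wolffian duct and depends on androgens. Its lumen is lined by a tall secretory epithelium that makes most of the protein of the seminal fluid, and this epithelium lies on a sleeve of smooth muscle that empties the gland. White adipose tissue of the same body region is built of adipocytes, vessels, immune cells and a mesothelial cover, and adipocytes are not known to make seminal fluid proteins.

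The label of the group was checked against marker lists. Of the 13 measured genes of a list of seminal vesicle secretory genes, 12 were members. The summed level of this list was 588699, 113047 and 23212 CPM in NCD replicates 1, 2 and 3, against 56.2, 76.2 and 61.4 CPM in the HFD libraries. Nearly all of the HFD sum came from Serpine2, the protease nexin and the only measured gene of the list that was not a member. No gene found under its listed name in the lists for epididymis (12 measured), vas deferens (3), prostate (5) or testis (8) was a member. The sums of these measured genes stayed between 0 and 5.79 CPM per list in every library. Of the 10 prostate names 5 were not found. Among these was Spink3, a former name of the member Spink1 (2209, 436 and 78.4 CPM on NCD). The prostate sum leaves this gene out, so it cannot decide whether prostate RNA was present. Abo, of the prostate list, had the members' order, with 5.44, 0.889 and 0.299 CPM on NCD and 0 on HFD. It missed only the bound of 3 between NCD replicates 2 and 3, at a ratio of 2.97. The adipocyte list, which checks the labelled tissue, summed to 6378 CPM in NCD replicate 1 and to between 23643 and 74600 CPM in the other 5 libraries. Whether tissue of the gland was taken along with the fat was not tested, and in bulk RNA more cells of a type cannot be told apart from more RNA per cell.

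Together the members took 61.4%, 11.8% and 2.42% of all counts in the NCD libraries 1, 2 and 3, and from 0.0165% to 0.0173% in those of the HFD group. The 185 members outside the secretory list took 2.67%, 0.521% and 0.111% of the counts in NCD replicates 1, 2 and 3. A large part of these shares came from secreted proteins that are not in the list. In NCD replicate 1 these included Pate14 (7130 CPM), 9530003J23Rik (6585), Nucb2 (1264) and Dnase2b (1211). The 185 genes are the subject of most of what follows. Beside such secreted proteins they hold factors, junction proteins, transporters, enzymes, muscle genes and members of other roles. By level in NCD replicate 1, 16 members exceeded 1000 CPM, 25 lay between 100 and 1000, 126 between 10 and 100, and 30 under 10 CPM.

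**Figure D1:**
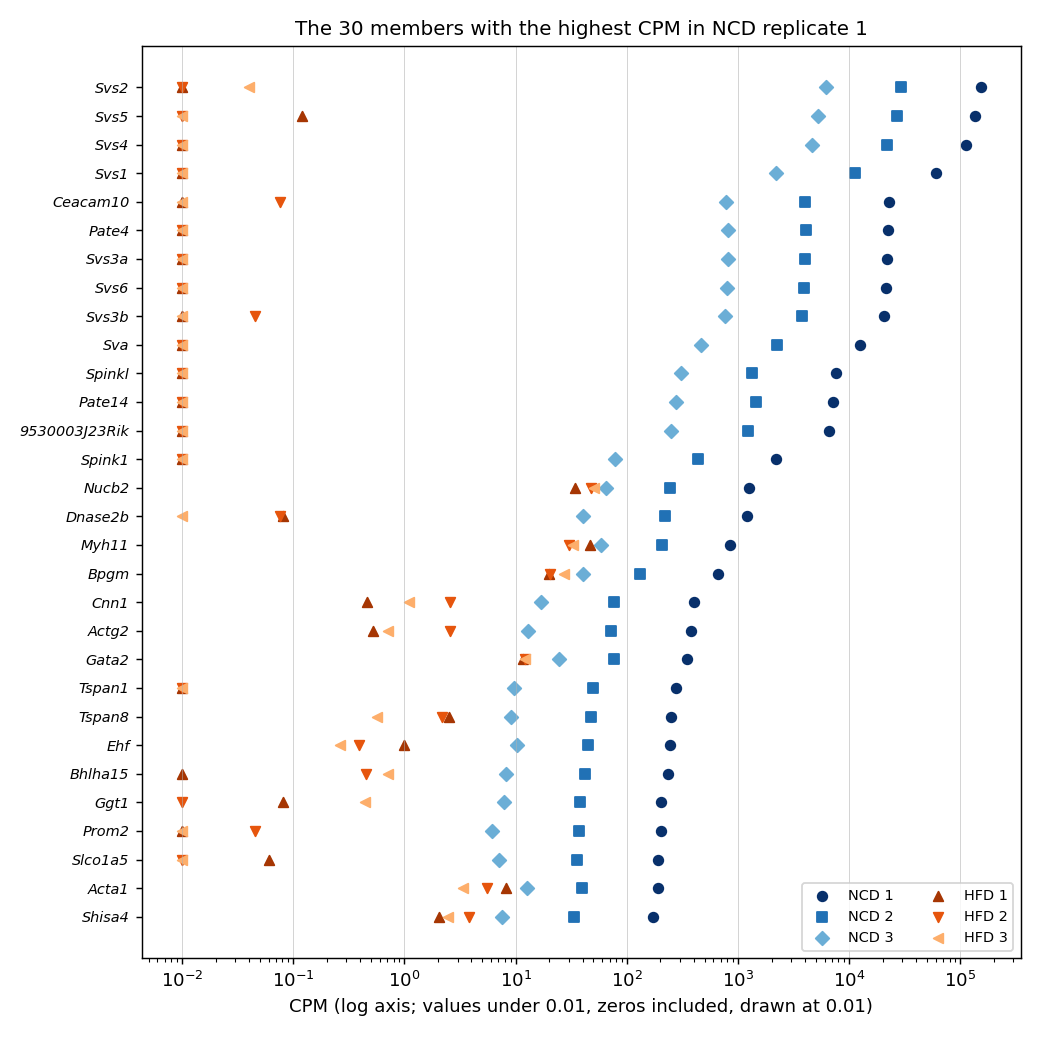
CPM (log axis) of the 30 members with the highest level in NCD replicate 1, one marker per library; values under 0.01 are drawn at 0.01. The 3 NCD libraries (blue) lie in the order the rule set, from Svs2, at 151753 CPM in NCD replicate 1, to Shisa4, at 173 CPM. The second step is smaller than the first for most of these genes, such as Bpgm (3.23 against 5.05) and Gata2 (3.15 against 4.52). The HFD libraries (orange) lie at or near 0 for most secreted proteins and at 20.1 to 51.1 CPM for Nucb2, Myh11 and Bpgm.

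The first of the 2 ratios lay near one value in most members, whatever their level. Over the members, NCD replicate 1 exceeded NCD replicate 2 by a median ratio of 5.16, with quartiles at 4.77 and 5.45. Of the 197 members, 174 lay within 1.2 times this median. NCD replicate 2 exceeded NCD replicate 3 by a median ratio of 4.81 with quartiles at 4.09 and 5.61, and 111 members lay within 1.2 times the median. The rule set only the lower bound of 3 for each ratio. The size of the first ratio depends on the scaling, since the members themselves took 61.4% of the counts of NCD replicate 1: its median was 10.6 with TMM factors or median-of-ratios scaling and 11.1 with totals that leave out the secretory list, and that of the second ratio was 5.04 to 5.29. The medians in the secretory list were 5.44 and 4.97, and those of the 185 other members were 5.14 and 4.78. The exact 95% interval of the ratio from the counts, which covers counting error only, held the common median in 140 members for the first ratio and in 136 for the second.

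**Figure D2:**
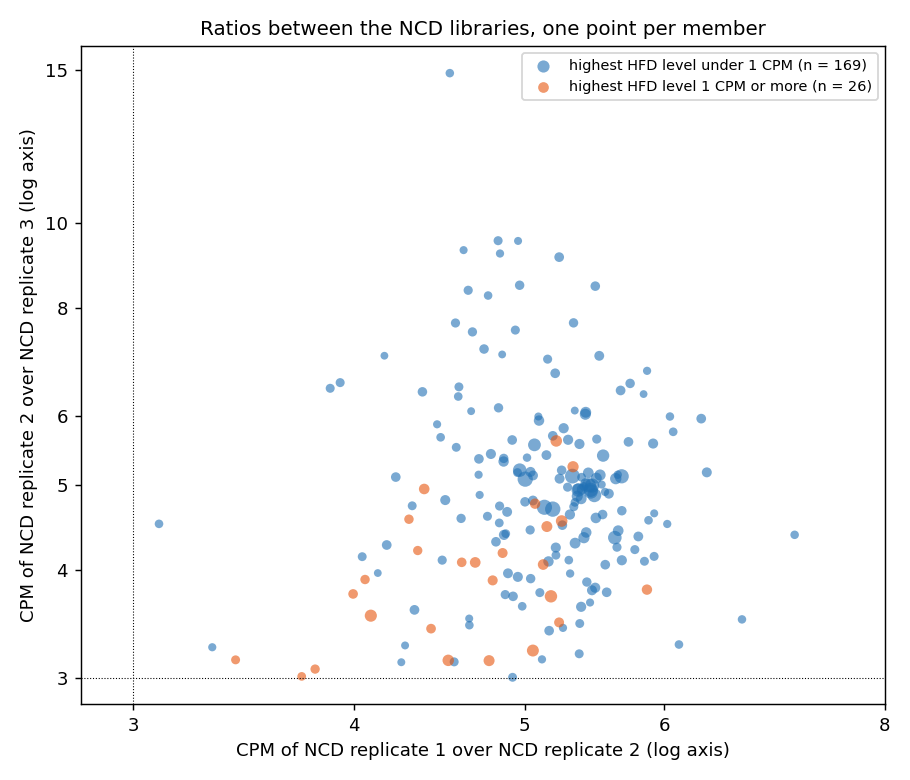
Ratio of CPM between NCD replicates 1 and 2 (horizontal) and between NCD replicates 2 and 3 (vertical), both on log axes, for 195 members; point size follows the level in NCD replicate 1, and dotted lines mark the 3-fold bounds of the rule. Sprr2a2 and Ttll10, at 0 in NCD replicate 3, are not drawn. The points gather near 5.16 and 4.81, and the 26 members with at least 1 CPM in an HFD library (orange) lie lower on the vertical axis than most others.

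The values nearest to each bound were as follows. For the level in NCD replicate 1, Nxf7 (5.19 CPM), Mkx (5.22) and Kcng1 (5.26) were the lowest members, and Bmp15 (4.95) and Pla2g12b (4.58) were among those nearest to it from outside. For the first ratio the smallest values among members were 3.10 for Sprr2a1, 3.33 for Map3k21 and 3.43 for Grb7, and the nearest genes outside were Naip6 at 1.81, Reln at 1.55 and Mmrn1 at 0.712. Only these 3 genes failed that condition alone. For the second ratio Rgs9 (3.01), Cabp1 (3.01) and Mtcl1 (3.07) were just inside, and Stard10 (2.98), Abo (2.97) and Hoxb9 (2.95) just outside. For the highest HFD level relative to NCD replicate 3, Grb7 (0.992), Prr15l (0.972) and Ap1m2 (0.960) were just inside, and Tent5c (1.02), Art4 (1.04) and Tmem150c (1.08) just outside.

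Secreted proteins formed the strongest set of members, with 26 genes and a median of 4397 CPM in NCD replicate 1. Svs2, a main protein of the copulatory plug, had 151753, 29261 and 6234 CPM in NCD replicates 1, 2 and 3 and 0, 0 and 0.0403 CPM in the HFD libraries. Svs5 had 133949, 26773 and 5269 CPM and Svs4 had 111747, 21782 and 4618 CPM in the NCD libraries. Per kilobase of exon the order changed: in NCD replicate 1 Svs5, whose annotated exons are the shorter, reached 213295 RPKM (CPM per kilobase of exon), Svs4 152868 and Svs2 76450. The secreted proteins beyond the Svs genes included Ceacam10 (22626, 3987 and 779 CPM), a secreted member of the carcinoembryonic antigen family, Pate4 (22200, 4083 and 817 CPM), a small cysteine-rich protein, and Sva (12372, 2260 and 464 CPM), the seminal vesicle autoantigen. Each of these 3 genes lay far above its HFD level, which was at most 0.0754 CPM.

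Several secreted members are not among the genes listed for the gland. Pate14 had 7130, 1435 and 276 CPM in the NCD libraries, and 9530003J23Rik, a lysozyme-like gene, had 6585, 1228 and 249 CPM, both with no count in any HFD library. Dnase2b, an acid endonuclease, had 1211, 219 and 40.4 CPM and at most 0.0802 CPM on HFD. Protease inhibitors of the Kazal family were represented by Spinkl (7582, 1348 and 310 CPM), Spink1 (2209, 436 and 78.4 CPM), Spink11 (102, 18.8 and 4.27 CPM) and Spink8 (59.0, 11.3 and 2.67 CPM), and the whey acidic protein family by Wfdc15b (44.0, 8.71 and 1.81 CPM). Spinkl and Spink1 belong to the secretory list, and the other inhibitors do not. All 5 inhibitors were at 0 counts in every HFD library, which allows up to 3 counts per library. Nucb2, a calcium-binding protein of the secretory pathway and the precursor of nesfatin-1, stood apart: it had 1264, 244 and 65.6 CPM on NCD and 34.0, 47.5 and 51.1 CPM on HFD. It was the only secreted member with at least 1 CPM in an HFD library.

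Most Svs genes lie next to each other. On chromosome 2 (GRCm38.p6), Wfdc15b, Svs2, Svs3b, Svs4, Svs3a, Svs6 and Svs5 followed each other between positions 164214454 and 164334394 with no other measured gene among them. Past Svs5, up to Tnnc2 at position 164779734, lay 19 measured genes that were not members, and Tnnc2, a fast troponin C, was the next member (9.68, 1.93 and 0.359 CPM on NCD). Among the 19, Wfdc8 had the same order at a level under the bound of the rule (2.11, 0.359 and 0.120 CPM). Slpi, a leukocyte protease inhibitor, had 5.46, 8.01 and 25.2 CPM on NCD and 34.7, 54.9 and 37.1 CPM on HFD, and the epididymal Eppin was at most 0.528 CPM in any library.

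The starts of the cluster's genes are shown because 5 of them share 2 short motifs at like distances, which the rule did not use. The sequences are the 125 bases before the annotated transcript start in RefSeq (GRCm38.p6), on the strand of the gene, with TATAAA and GATAAG in capitals. They lie at chr2:164238342-164238466 (minus) for Svs2, chr2:164289142-164289266 (plus) for Svs3a, chr2:164256644-164256768 (minus) for Svs3b, chr2:164278308-164278432 (minus) for Svs4, chr2:164332640-164332764 (plus) for Svs5 and chr2:164316626-164316750 (plus) for Svs6.
Svs2: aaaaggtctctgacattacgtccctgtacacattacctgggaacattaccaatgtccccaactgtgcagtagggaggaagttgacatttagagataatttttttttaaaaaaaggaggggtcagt
Svs3a: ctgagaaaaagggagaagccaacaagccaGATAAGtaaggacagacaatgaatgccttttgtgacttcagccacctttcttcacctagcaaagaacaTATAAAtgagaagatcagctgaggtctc
Svs3b: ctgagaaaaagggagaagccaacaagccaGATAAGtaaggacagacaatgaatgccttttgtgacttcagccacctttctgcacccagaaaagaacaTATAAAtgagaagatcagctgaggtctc
Svs4: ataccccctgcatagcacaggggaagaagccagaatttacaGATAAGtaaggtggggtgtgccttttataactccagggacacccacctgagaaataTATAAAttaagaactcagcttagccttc
Svs5: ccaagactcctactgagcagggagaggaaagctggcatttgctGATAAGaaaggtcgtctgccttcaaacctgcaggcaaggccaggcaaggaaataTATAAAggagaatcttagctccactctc
Svs6: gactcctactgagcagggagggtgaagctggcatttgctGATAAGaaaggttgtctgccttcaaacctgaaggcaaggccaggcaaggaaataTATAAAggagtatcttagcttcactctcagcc
The motif TATAAA began 28 bases before the start in Svs3a, Svs3b, Svs4 and Svs5 and 32 bases before it in Svs6. GATAAG began 82 to 96 bases before the start in the same 5 genes. Svs2 held neither motif in this stretch. Over the whole 300-base promoters (250 bases before and 50 after the start) Svs3a and Svs3b were 97.7% identical and Svs5 and Svs6 93.8%, and no other pair among 9 secretory genes exceeded 61.3%. The likeness of the transcripts themselves was not measured. Whether Svs3a and Svs3b shared reads in counting is therefore not known, and the split between them is uncertain.

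The same motifs were counted in all promoters. RefSeq promoters were found for 144 of the 197 members and for 14900 measured genes in all. TATAAA on the gene's strand between 45 and 15 bases before the start was present in 9 members (6.25%) and in 2.48% of all genes. Of these 9 members, 5 were the neighboring Svs genes above. Some of their promoters are near-identical, so they are not all separate instances in the counts of either motif. The others with TATAAA were Doxl2, Slc26a3, Plet1 and Gjb1. GATAAG, a sequence that GATA factors can bind, was present on either strand in 23 members (16%) and in 7.04% of all genes. It was found in Svs1 and the 5 genes above, and beyond the Svs genes in Dnase2b, Tspan1, Bhlha15, Elf5 and Slc44a4 among others.

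Further stretches of 60 bases, on the strand of the gene, show GATAAG in members that are not Svs genes, here as its reverse complement CTTATC in capitals. They lie at chr3:146615780-146615839 (minus) for Dnase2b, chr4:116167685-116167744 (minus) for Tspan1, chr5:144190036-144190095 (plus) for Bhlha15 and chr17:34914224-34914283 (plus) for Slc44a4.
Dnase2b: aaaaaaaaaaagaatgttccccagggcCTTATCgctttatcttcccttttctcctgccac
Tspan1: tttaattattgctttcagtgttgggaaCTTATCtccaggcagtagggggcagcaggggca
Bhlha15: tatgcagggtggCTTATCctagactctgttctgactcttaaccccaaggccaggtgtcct
Slc44a4: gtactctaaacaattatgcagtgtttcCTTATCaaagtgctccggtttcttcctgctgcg
Here the motif began 214 bases before the start in Dnase2b, 119 in Tspan1, 238 in Bhlha15 and 215 in Slc44a4, so it did not stand at the distance seen in the Svs genes. AGAACA, the repeated unit of the androgen response element, was present in 25% of member promoters and 16.6% of all. The full element of 2 such sites in inverted repeat with 3 bases between them was in no member promoter and in 0.0134% of all. AGGAAG, with the core that ETS factors bind, was in 46.5% against 37.9%, CAGCTG in 27.1% against 18.8%, TGTTTAC in 4.86% against 3.32%, and AACCGGTT in no member against 0.262%. The members' promoters were lower in GC (median 54.8%, all genes 58.7%), and the part of base composition in these shares was not tested. A match of letters is not a bound site.

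Of 25 measured genes in a list of epithelial transcription factors, 12 were members, and 24 members in all were transcription or splicing factors. Gata2, a zinc finger factor, had the highest level, with 348, 76.9 and 24.4 CPM in NCD replicates 1, 2 and 3 and 11.6, 12.1 and 12.1 CPM on HFD. Gata3 had 126, 24.6 and 6.06 CPM on NCD and 1.38, 3.04 and 2.0 CPM on HFD. Both were thus also measured on HFD, at levels that differed little among the 3 libraries for Gata2.

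The 3 epithelium-specific ETS factors were members. Ehf had 244, 45.1 and 10.4 CPM and Elf5 had 166, 30.6 and 5.05 CPM on NCD, and these 2 genes lie near each other on chromosome 2. Elf3 had 36.3, 6.54 and 1.62 CPM. Ehf was at most 0.982 CPM on HFD, and Elf5 and Elf3 had no count there. Bhlha15 (Mist1), which shapes the secretory apparatus of exocrine cells, had 234, 42.4 and 8.26 CPM on NCD and 0, 0.452 and 0.706 CPM on HFD.

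Regulators of epithelial identity were measured at lower levels. Grhl2, which maintains epithelial junctions, had 64.5, 12.0 and 2.15 CPM on NCD and 0 on HFD. Esrp1, the epithelial splicing regulator, had 69.3, 14.3 and 3.25 CPM. Foxa1, a pioneer factor of epithelia, had 15.6, 3.42 and 0.618 CPM, and Spdef, a factor of mucus-secreting cells, 13.7, 2.55 and 0.499 CPM. Neither had a count on HFD. The AP-2 family genes, Tfap2a (16.8 CPM in NCD replicate 1), Tfap2b (12.1) and Tfap2c (5.66), completed this set. Per kilobase in NCD replicate 1, Gata2 (94.5 RPKM), Bhlha15 (67.0), Elf5 (62.2) and Ehf (52.9) were the highest factors, against 4.90 RPKM for Foxa1.

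Genes that mark the Wolffian duct gave 2 members among 24 measured. Pax2, required for the duct, had 13.2, 2.48 and 0.518 CPM on NCD and at most 0.0602 CPM on HFD. Hoxd13, a posterior homeobox gene, had 6.61, 1.33 and 0.140 CPM on NCD and no count on HFD. Hoxa11os, a transcript antisense to Hoxa11, was a further member at 6.86, 1.49 and 0.160 CPM; the library kit marks strand, but whether the counting used it is unknown here, so it may hold reads of Hoxa11.

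The diets were compared with edgeR over all 15241 genes that passed a filter on low counts. At an adjusted p under 0.05, 7.47% of the tested genes were called, 1.90% lower and 5.58% higher on HFD. Of the 187 members that passed the filter 32 were called, all lower on HFD, which the rule itself builds in, and this count is read no further. The HFD values were part of the rule, so genes kept out of the members by them alone are given below without a test, whereas Fkbp5 and Sox9 failed its ratios between the NCD libraries. Fkbp5, an immunophilin induced by steroid hormones, had 83.3, 118 and 133 CPM on NCD and 68.0, 68.2 and 99.5 CPM on HFD, and Sox9, an epithelial and cartilage factor, had 20.7, 12.2 and 8.61 CPM on NCD and 1.82, 3.62 and 2.54 CPM on HFD. The fold changes use TMM factors, which were 0.496, 1.02 and 1.07 for NCD replicates 1, 2 and 3, whereas the CPM do not. The order of Fkbp5 among the NCD libraries in CPM therefore depends on the scaling. Fkbp5 was lower on HFD (log2 fold change −1.09, SE 0.23, edgeR adjusted p = 0.0453), and so was Sox9 (−3.25, SE 0.70, edgeR adjusted p = 0.0481). Without NCD replicate 1 the edgeR adjusted p of these genes was 0.0276 and 0.0124. Scaled by total counts alone, Fkbp5 (log2 fold change −0.50) was not called. With any one of the 5 other libraries left out the calls for both genes were lost.

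Proteins of the apical surface and the junctions were the largest named group, with 36 members. In a list of 40 luminal epithelial genes, all measured, 14 were members. The tetraspanins Tspan1 (278, 49.3 and 9.69 CPM on NCD, 0 on HFD) and Tspan8 (252, 47.3 and 9.01 CPM on NCD, 2.51, 2.17 and 0.565 CPM on HFD) had the highest levels, followed by Prom2 (202, 37.3 and 6.18 CPM) and Prom1 (109, 24.9 and 5.03 CPM), which mark membrane protrusions. Tight junction members were Cldn8 (65.0, 11.9 and 3.11 CPM), Cldn4 (45.7, 8.29 and 1.18 CPM), Cldn7 (24.4, 5.30 and 1.16 CPM) and Ocln (21.0, 4.60 and 0.598 CPM). Of these 4 genes Cldn8 and Cldn7 had no count on HFD, and Cldn4 and Ocln at most 0.0802 CPM.

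The desmosomal and adhesion members had like values. Dsp, which links desmosomes to keratin, had 83.7, 16.5 and 3.47 CPM on NCD and 0.261, 1.02 and 0.182 CPM on HFD. Epcam, the epithelial cell adhesion molecule, had 57.0, 11.5 and 2.93 CPM on NCD and 0.441, 0.512 and 0.303 CPM on HFD. Sorting proteins of polarized cells were also members: Rab25 (32.4, 5.91 and 0.698 CPM), Ap1m2 (29.2, 5.09 and 0.778 CPM), Myo5c (73.4, 13.8 and 2.99 CPM) and Crb3 (12.3, 2.46 and 0.678 CPM). The basal keratin Krt5 was the only member among 10 basal epithelial genes, at 11, 2.31 and 0.279 CPM. Upk2, a urothelial plaque protein, was the only member of the bladder list, at 6.58, 1.11 and 0.239 CPM. The near-identical Sprr2a1 and Sprr2a2 departed from the common ratios, with 11.4, 3.69 and 0.818 CPM and with 8.64, 0.0342 and 0 CPM, and how their shared reads were assigned is not known.

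Of the 26 non-members of the luminal list, 10 met the bound on level and both ratios and failed only because an HFD library was higher than NCD replicate 3. Cdh1, the adhesion protein of epithelial junctions, had 78.4, 15.2 and 2.99 CPM on NCD and 0.160, 1.58 and 4.48 CPM on HFD. Krt18 had 214, 42.0 and 11.1 CPM on NCD and 6.22, 28.2 and 9.44 CPM on HFD, and its partner keratin Krt8 had 139, 33.4 and 9.31 CPM on NCD and 11.3, 68.3 and 21.6 CPM on HFD. Both keratins were highest, among the HFD libraries, in HFD replicate 2. So was the mesothelium list, with a sum of 784 CPM there against 315 and 252 CPM in HFD replicates 1 and 3 and 122 to 184 CPM on NCD. Mesothelial cells are known to express simple keratins, and the part of the mesothelium in the HFD levels was not tested.

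Over all measured genes, 81 met the bound on level and both ratios but not the condition on HFD. Their median ratios were 4.55 and 4.22, somewhat under those of the members. Their highest HFD library was HFD replicate 2 in 43 genes and replicates 1 and 3 in 19 genes each. These included Cldn3 (55.1, 12.3 and 3.07 CPM on NCD, 1.34, 4.23 and 2.14 CPM on HFD), and, outside the lists, Cd24a and Perp, named after their values were seen.

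Transporters were represented by 21 members, and none reached 1 CPM in an HFD library. Slco1a5, an organic anion transporter, had 189, 35.3 and 7.14 CPM on NCD. Kcnk1, a potassium leak channel, had 148, 27 and 5.30 CPM, and Atp12a, the proton and potassium pump of non-gastric epithelia, had 126, 22.4 and 5.05 CPM with no count on HFD. Trpv6, the apical calcium channel of calcium-transporting epithelia, had 88.6, 17.4 and 2.93 CPM, and Slc44a4, a choline-related transporter, had 84.7, 17.4 and 3.27 CPM, again with no count on HFD. Exchangers for acid and base were Slc9a2 (71.4, 13.6 and 2.33 CPM) and Slc26a3 (37.1, 7.16 and 1.26 CPM). Nutrient carriers came at lower levels: Slc5a1 for glucose (27.8, 5.59 and 0.658 CPM), Slc23a1 for ascorbate (18.9, 3.57 and 0.718 CPM) and Slc6a14 for amino acids (12.1, 2.29 and 0.558 CPM).

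The fixed list for epithelial transport held 40 measured genes, of which 4 were members (Atp12a, Slc44a4, Slc26a3 and Slc6a14). Of its 31 genes tested by edgeR, members included, 3 were called higher and 0 lower on HFD. Over all tested genes 5.58% were called higher and 1.90% lower. None of the 3 calls was made when any one library other than NCD replicate 1 was left out.

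Genes of protein glycosylation and vesicle traffic gave 10 members. Mlph, which tethers secretory organelles to the cytoskeleton, had 124, 26.4 and 6.48 CPM on NCD and 2.79, 0.919 and 0.605 CPM on HFD. Cwh43, of the lipid anchor pathway, had 58.3, 11.6 and 2.23 CPM with no count on HFD, and Derl3, of the degradation of misfolded secretory proteins, had 49.7, 9.5 and 2.73 CPM on NCD and 1.08, 2.25 and 2.28 CPM on HFD. The glycosyltransferases Large2 (37.0, 7.11 and 1.06 CPM), Fut2 (34.3, 7.13 and 1.66 CPM) and B4galnt2 (30.7, 7.02 and 1.10 CPM) had like levels. In the list of the general secretory pathway, by contrast, only Bhlha15 and Fut2 of 52 measured genes were members. The sum over its 50 non-members was 7428, 6132 and 5616 CPM on NCD and 7078, 10357 and 11736 CPM on HFD. In NCD replicate 1 the CPM of non-members are held down by the members, which took 61.4% of its counts. The TMM factors of NCD replicates 1, 2 and 3 were 0.496, 1.02 and 1.07. The differences of these sums between the libraries therefore depend on the scaling. Of the list's 47 genes tested by edgeR, members included, 6 were called higher and 0 lower on HFD. The shares over all tested genes were 5.58% and 1.90%. Of the list, 0 or 1 gene was called when any one library other than NCD replicate 1 was left out.

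Metabolic enzymes gave 10 members. Bpgm, the bisphosphoglycerate mutase, had 665, 132 and 40.7 CPM on NCD and 20.1, 20.4 and 27.4 CPM on HFD. Ggt1, which cleaves extracellular glutathione, had 205, 38.3 and 7.88 CPM on NCD and at most 0.444 CPM on HFD. Gad2, an enzyme of GABA synthesis, had 131, 24.1 and 4.67 CPM on NCD and at most 0.0301 CPM on HFD, and Gabrp, a GABA receptor subunit of epithelia, had 18.6, 3.76 and 0.499 CPM and no count on HFD. None of the 18 measured genes for fructose, polyamine and prostaglandin synthesis was a member. Of these 18, all tested, 2 were called lower on HFD and 0 higher, against 1.90% and 5.58% of all tested genes. Ptges, a prostaglandin E synthase, had 38.8, 197 and 191 CPM on NCD and 50.3, 55.7 and 61.6 CPM on HFD (log2 fold change −1.72, SE 0.35, edgeR adjusted p = 0.0428). Slc2a5, the fructose transporter, had 1.04, 2.96 and 4.43 CPM on NCD and 0, 0 and 0.101 CPM on HFD (−6.79, SE 1.21, edgeR adjusted p = 0.0320). Among the NCD libraries both were lowest in replicate 1, opposite to the members, and both calls were lost with any one other library left out. Sord, which makes the fructose of seminal fluid from sorbitol, had 310, 116 and 82.6 CPM on NCD and 61.2, 53.3 and 44.1 CPM on HFD (log2 fold change −2.65, SE 0.84, edgeR adjusted p = 0.102).

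Receptors and signaling genes gave 16 members of moderate level. Erbb3, a neuregulin receptor, had 52.6, 10.8 and 2.59 CPM on NCD and 1.08, 2.37 and 1.98 CPM on HFD. Tnfrsf19 had 51.7, 8.15 and 1.58 CPM, Ripk4, a kinase of epithelial differentiation, had 39.7, 9.18 and 2.55 CPM, and Rnf43, an inhibitor of Wnt receptors, had 20.1, 4.15 and 0.877 CPM. No member of this group was at 0 counts in all HFD libraries.

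Genes of muscle made up 9 members, so the shared arrangement was not limited to epithelial genes. Of 16 measured smooth muscle genes 5 were members, Myh11, Cnn1, Actg2, Pcp4 and Hhip. Myh11, the smooth muscle myosin heavy chain, had 851, 208 and 58.8 CPM on NCD and 46.8, 30.1 and 32.5 CPM on HFD. Cnn1 (calponin) had 400, 76.3 and 16.8 CPM on NCD and 0.461, 2.58 and 1.09 CPM on HFD, and Actg2, the enteric smooth muscle actin, had 379, 72.7 and 12.9 CPM on NCD and 0.521, 2.58 and 0.706 CPM on HFD. The actins Acta1, Acta2 and Actg2 are similar in sequence and may share reads. The non-members of the list with the highest level in NCD replicate 1 each had a ratio under 3 between NCD replicates 2 and 3: Acta2 had 692, 185 and 63.3 CPM on NCD and 207, 127 and 125 CPM on HFD, Tagln 520, 145 and 58.6 CPM and 67.5, 85.7 and 72.1 CPM, and Des 398, 97.8 and 34.8 CPM and 28.3, 42.3 and 41.3 CPM. None of these 3 differences was called, with log2 fold changes of −2.11 (SE 1.12, edgeR adjusted p = 0.259), −2.76 (SE 1.07, edgeR adjusted p = 0.151) and −3.36 (SE 1.18, edgeR adjusted p = 0.125). Without NCD replicate 1 the log2 fold change of Acta2 was 0.088, the opposite direction, and those of Tagln and Des were −0.67 and −1.06.

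**Figure D3:**
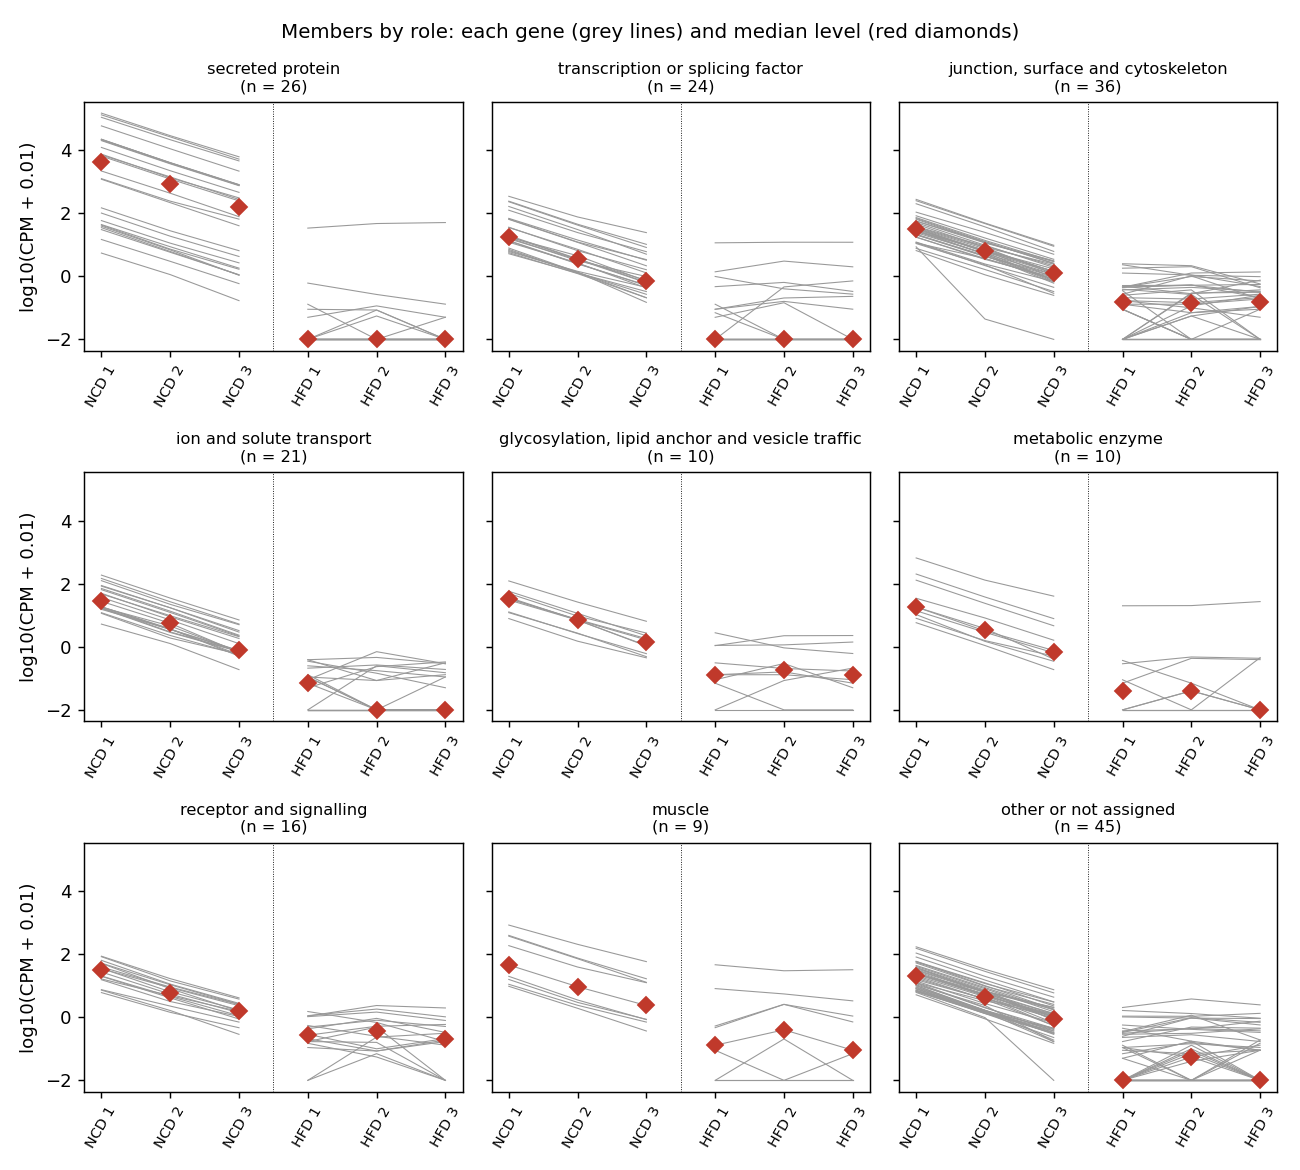
Level of each member as log10(CPM + 0.01) in the 6 libraries, by role; a grey line joins the values of 1 gene within a diet, and red diamonds give the median of the role in each library. In all 9 panels the medians fall from NCD replicate 1 to 2 and 3, the order the rule set, and the medians of secreted proteins and of transcription or splicing factors are at 0 CPM in every HFD library, whereas those of receptors, junction and traffic genes are above 0.

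Members differed in how far they were measured on HFD. There were 68 members with no count in any HFD library and 26 with at least 1 CPM in one of them. No count on HFD was recorded for 18 of 26 secreted proteins and 14 of 24 transcription or splicing factors, but for 7 of 36 junction and surface genes, 2 of 9 muscle genes, 1 of 10 glycosylation and traffic genes and 0 of 16 receptor and signaling genes. The 26 members measured on HFD had a median ratio of 4.73 between NCD replicates 1 and 2 and of 3.89 between NCD replicates 2 and 3, and the other 171 had medians of 5.23 and 4.95. Among the 26, the pair of ratios was 4.52 and 3.15 for Gata2, 5.05 and 3.23 for Bpgm and 4.09 and 3.54 for Myh11.

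Of the 197 members, 57 were in at least 1 of the 19 gene lists and 140 in none. Noncoding and little-described transcripts were among the latter. The long noncoding RNA 4930412O13Rik, close to Gata3 on chromosome 2, had 110, 20.0 and 4.37 CPM on NCD against 126, 24.6 and 6.06 CPM for Gata3, and 2700070H01Rik had 155, 28.9 and 5.98 CPM with no count on HFD. Tbx3os2 and Gm16063, which lie on chromosome 5 with 1 other measured gene in their span, had 29.1, 5.13 and 1.10 CPM and 19.4, 3.76 and 0.538 CPM. Where such transcripts overlap a coding gene their counts may hold its reads.

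Position was a further feature that the rule did not use. With a distance of at most 500 kilobases between neighbors, 61 members fell into 24 groups of 2 to 8 genes. How many of an equal number of measured genes would lie so near each other was not measured. These counts are therefore description only. Beside the Svs cluster some held related genes, such as Pate4 with Pate6 and Pate9 with Pate14 on chromosome 9, Sva and Sval2 (with Trpv6) and Svs1 with Doxl2 on chromosome 6, and Ehf with Elf5. Most joined genes of different function, such as Prom2 with Mal on chromosome 2, Grb7 with Gsdma on chromosome 11, and Ggt1 with Derl3 and Lrrc75b on chromosome 10. Within the spans of most groups there were measured genes that were not members, for example 9 of 12 genes around Elf3, Shisa4 and Lad1 on chromosome 1.

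**Figure D4:**
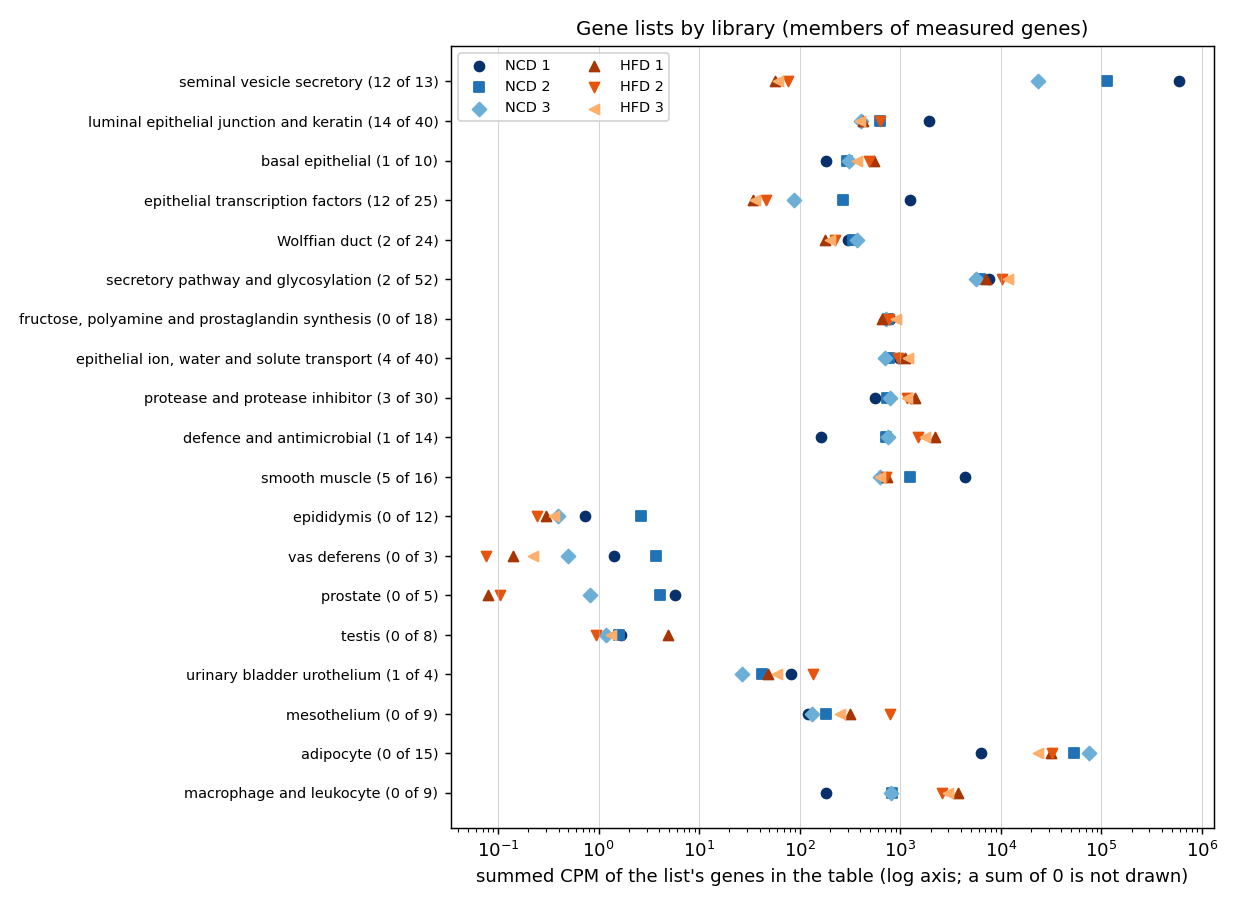
Summed CPM (log axis) of the measured genes of each of the 19 lists, one marker per library, with the number of members of measured genes in brackets; a sum of 0 is not drawn. The lists for seminal vesicle secretory genes, epithelial transcription factors and smooth muscle are highest in NCD replicate 1, at 588699, 1247 and 4385 CPM, whereas the adipocyte list is lowest there and the mesothelium list is highest in HFD replicate 2.

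The lists for other cells of fat moved differently. The macrophage and leukocyte list held no member and summed to 181, 835 and 811 CPM on NCD and to 3724, 2606 and 3006 CPM on HFD. Of its 9 genes 4 were called higher and 0 lower on HFD, against 5.58% and 1.90% of all tested genes. The mesothelium list held no member, and of its 9 genes Msln was called higher on HFD (log2 fold change 2.22, SE 0.37, edgeR adjusted p = 0.0289), with 8.81, 19.2 and 15.9 CPM on NCD and 77.8, 156 and 60.1 CPM on HFD. Akr1b7, an aldo-keto reductase known from the vas deferens, had 1.39, 3.35 and 0.499 CPM on NCD and at most 0.182 CPM on HFD (−4.32, SE 0.87, edgeR adjusted p = 0.0415) and was highest in NCD replicate 2, apart from the members' arrangement. The calls for Msln, Akr1b7 and the leukocyte genes were all lost with any one library other than NCD replicate 1 left out, and Msln and Akr1b7 had edgeR adjusted p of up to 0.101 and 0.151 over the alternatives. Crisp1, an epididymal sperm protein, likewise was measured mainly in NCD replicate 2, with 2.2 CPM there against at most 0.160 CPM in the other 5 libraries.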

How the data were processed

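Gene counts were used as the authors deposited them, 1 column of raw counts per library for 19790 NCBI genes, with no unmapped column of sample values. Per the submitters' processing notes and labels, libraries were made with a stranded mRNA kit and processed with bcl2fastq 2.20.0, Trimmomatic, HISAT2 2.1.0, StringTie 1.3.4d and DESeq2 against mm10 (GRCm38); settings and annotation are not given in the sources. Library totals of 49575113 to 66360046 counts set the precision, and intervals cover counting error only. The study's supplement describes its replicates as biological, without saying whether a library is 1 mouse or a pool.

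CPM was the count over the library total times 1000000. RPKM used the union of GENCODE vM21 basic exons, found for 186 of 197 members. Names, positions and promoters came from RefSeq (GRCm38.p6). The diets were compared with edgeR 4.0.16 (TMM, filterByExpr, quasi-likelihood test, no block, all 6 libraries, Benjamini-Hochberg adjustment over all genes kept, threshold 0.05), tested on simulated data, in R 4.3.3. Other scalings, no filter, DESeq2 1.42.0, the replicate number as a block and each library left out were the alternatives, and the rule was varied in its bounds and scaling.

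Members and gene lists were chosen with earlier results of these data known, and the roles and motifs after the members' values were seen. The genes named were the 30 members with the highest CPM in NCD replicate 1, members in a gene list, the 3 genes nearest each bound on either side, and of each list up to 4 non-members of highest mean CPM and those that passed the test; of the last 2 kinds the text names those a statement turns on. Members named outside this rule, and Cdh1, Krt8, Cldn3 and genes named by position, were chosen after their values were seen. Of the list genes, 30 entries were not analysed here. A few genes that meet these rules are not reported here.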

Additional observations from a re-analysis of the deposited data

How the results depend on the processing

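The 197 members became 68 with a minimum of 50 CPM, all of them members. The other bounds and scalings, each HFD library left out and no condition on HFD gave 150 to 278 genes, within 1.5 times the number of members, and the median ratio of NCD replicate 2 to 3 stayed within its quartiles over the members. That of NCD replicate 1 to 2 rose from 5.16 to 10.63 with TMM, 10.61 with median-of-ratios scaling and 11.12 with totals without the secretory list. Taking each gene's mean HFD level off, chosen after seeing the data, raises both ratios by construction and gave 5.32 and 5.34. Of 15241 tested genes 1139 were called by edgeR, against 3904 by DESeq2. Leaving out 1 library gave 2 to 3234 calls: 3234 without NCD replicate 1 and 2 to 7 without any one other library, where 2988 to 4345 genes had an unadjusted p under 0.05. With the replicate block 12 genes were called. Same-numbered libraries did not deviate together (correlations of −0.057, −0.045 and 0.009). The sample labels state no pairing, and the title and description of HFD replicate 3 carry different numbers. The block therefore rests on numbers that are not known to pair libraries. Of the 187 members tested 32 were called by edgeR, 187 by DESeq2, 146 with total counts alone and 5 with the replicate block. With no filter on low counts 12 of 197 were called, without NCD replicate 1 it was 152 of 185, and without any one other library 0. Over all genes 959 of 15241 were called with total counts alone. With no filter the number was 803 of 19056, and without NCD replicate 1 it was 3234 of 15510. The rule builds in the members' calls, and they are read no further. Total counts alone shifted the median log2 fold change of all genes from −0.08 to 0.45.

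Of the 11 named non-members with a test, Acta2 reversed without NCD replicate 1, to a log2 fold change of 0.088, and ranged from −2.62 to 0.088 over the libraries left out. The 6 called genes (Fkbp5, Sox9, Akr1b7, Msln, Ptges and Slc2a5) kept their direction in every alternative and lost their call with the replicate block and without each library other than NCD replicate 1. Their adjusted p over the alternatives reached 0.401, 0.177, 0.151, 0.101, 0.199 and 0.102. With no filter on low counts Fkbp5, Sox9, Akr1b7 and Ptges lost the call, and with total counts alone Fkbp5 and Ptges. By DESeq2, 4 further genes were called (Serpine2, Sord, Des and Tagln), of which Serpine2 and Sord were also called without NCD replicate 1. The cause of these changes was not tested. A level under 0.1 CPM rests on a few counts.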

Other observations

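Among non-members of the reproductive tract lists, the highest level was not always in NCD replicate 1. Mmp7, a matrix protease of glandular epithelia, had 0.226, 3.14 and 0.479 CPM in NCD replicates 1, 2 and 3 and no count on HFD. Crisp1 and Akr1b7 were likewise highest in NCD replicate 2. Lcn5, an epididymal lipocalin, was measured only in NCD replicate 1, at 0.256 CPM.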
